A study of Mus musculus with 4 samples.

Results

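CC chemokines are small secreted proteins that draw leukocytes into tissue. Their transcripts were followed across sections of 4 mouse hearts in spots of a spatial array, for the 10 members Ccl2, Ccl7, Ccl8, Ccl12, Ccl3, Ccl4, Ccl5, Ccl6, Ccl9 and Ccl24. The members were chosen by gene symbol, with earlier results of these data known, and made up 10 of the 21885 genes in the count matrices. The part of that choice in the counts of members called was not tested. All 4 hearts came from Collagen1a1-GFP+ mice aged 8 to 12 weeks, in which a collagen promoter drives a fluorescent reporter, mainly in fibroblasts, so every group carried the transgene. The control heart was healthy, and it and the 3 dpi heart were labelled female. The infarcted hearts were taken 3 or 5 days after permanent ligation of the left anterior descending coronary artery, which causes a myocardial infarction, and gave 1 section at 3 days post-infarction (dpi) and 2 sections at 5 dpi. One section of 10 µm was placed on the array per heart, so the control and 3 dpi groups had no replicate. The 2 sections at 5 dpi are called by their labels, female and male, because 4 Y-linked genes gave 704 UMIs in the female-labelled section and 1 in the male-labelled section. These counts go against the sex labels, so the labels of the 2 sections may have been exchanged.

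CC chemokines act through G protein-coupled receptors on blood and tissue leukocytes, and many are made by macrophages, monocytes and stromal cells once damaged tissue activates the NF-kB pathway. Ccl2, Ccl7, Ccl8 and Ccl12 form the monocyte chemoattractant group, of which Ccl2, Ccl7 and Ccl12 act chiefly through Ccr2 and mouse Ccl8 through Ccr8. Ccl3, Ccl4 and Ccl5 are inflammatory chemokines that attract macrophages and T cells, Ccl6 and Ccl9 are rodent ligands of Ccr1, and Ccl24 is an eotaxin that acts on Ccr3. In the infarcted heart, Ccr2 ligands are known for the recruitment of monocytes from blood.

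Promoter sequences were available for 5 of the 10 members (RefSeq, GRCm38.p6, 250 bases before and 50 after the annotated start), all on chromosome 11. A pair with a large difference between infarct and remote tissue, Ccl6 and Ccl9, and a pair with a smaller one, Ccl8 and Ccl12, are shown. Capitals mark matches, on either strand, to TATAAA or TGANTCA.
Ccl8, chr11:82114935-82115234, plus strand: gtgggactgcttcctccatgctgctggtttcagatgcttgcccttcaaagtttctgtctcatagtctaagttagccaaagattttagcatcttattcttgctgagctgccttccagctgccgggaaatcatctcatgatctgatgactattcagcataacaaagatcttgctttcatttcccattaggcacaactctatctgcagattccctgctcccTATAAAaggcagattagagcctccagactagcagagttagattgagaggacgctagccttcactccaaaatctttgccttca
Ccl12, chr11:82101595-82101894, plus strand: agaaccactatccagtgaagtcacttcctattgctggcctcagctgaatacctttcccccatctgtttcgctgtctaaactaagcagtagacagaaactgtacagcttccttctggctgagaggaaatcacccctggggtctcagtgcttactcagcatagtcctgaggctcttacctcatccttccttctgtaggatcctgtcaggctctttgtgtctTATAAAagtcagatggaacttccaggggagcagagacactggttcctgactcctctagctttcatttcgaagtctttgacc
Ccl6, chr11:83593038-83593337, minus strand: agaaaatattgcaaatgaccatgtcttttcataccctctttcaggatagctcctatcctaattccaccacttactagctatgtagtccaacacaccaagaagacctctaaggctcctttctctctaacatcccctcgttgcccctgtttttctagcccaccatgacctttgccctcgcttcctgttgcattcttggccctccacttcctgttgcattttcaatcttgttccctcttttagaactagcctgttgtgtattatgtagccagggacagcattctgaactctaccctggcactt
Ccl9, chr11:83578587-83578886, minus strand: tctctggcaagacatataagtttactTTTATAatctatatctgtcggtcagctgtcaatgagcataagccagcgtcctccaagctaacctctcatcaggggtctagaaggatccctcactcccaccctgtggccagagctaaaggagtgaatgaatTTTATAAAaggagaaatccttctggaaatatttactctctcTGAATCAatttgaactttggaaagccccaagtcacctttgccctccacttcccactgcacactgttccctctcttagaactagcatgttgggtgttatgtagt
TATAAA began 32 bases before the start in Ccl8 and 31 bases before it in Ccl12. Ccl9 had 3 matches to TATAAA, the one on the gene's own strand at 92 bases before the start and overlapping a match on the other strand, and a TGANTCA match at 53 bases before it. The motif TATAAA occurred in 13.6% of all 32851 promoter windows of this length and TGANTCA in 7.81%. Ccl6 and Ccl3 held neither. GGGANTTTC, TTCNNNGAA and CCGCCC, found in 1.11%, 8.3% and 35.7% of all windows, had no match in these 5 windows. Ccl6 and Ccl9 shared an unbroken run of 13 bases and Ccl8 and Ccl12 one of 11 bases, the longest among the 10 pairs of these 5 promoters. The runs lay at different places, at −55 in Ccl6 and −14 in Ccl9, and at −81 in Ccl8 and 27 in Ccl12. Windows aligned on them were identical at 31.7% and 28.0% of overlapping bases. A match describes the letters of the window and not the binding of a factor.

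Spots under tissue that passed the quality limits numbered 1146 in the control, 1741 at 3 dpi, 1535 in the female-labelled section and 1423 in the male-labelled section. They held between 3742105 and 9540940 UMIs outside mitochondrially encoded genes per section. UMIs are counted once per captured transcript at its 3′ end, so levels are given without a length correction as CPM, scaled to the non-mitochondrial UMIs, and may be set side by side between genes on that scale. Each spot covers several cells, and fewer cells of a type cannot be told apart from less RNA per cell. Of all spot barcodes, 184 occurred in all 4 sections, as the array design is shared. In the control 1145 of 1146 spots met the cardiomyocyte limit for tissue outside an infarct, and mitochondrial transcripts made up 40.1% of UMIs against 13.3% to 21.4% in the infarcted sections. Intervals are 95% Poisson intervals and cover counting error only.

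All 10 members together gave 88.5 CPM in the control (331 UMIs), 1028 CPM at 3 dpi, 848 CPM in the female-labelled section and 666 CPM in the male-labelled section. The infarcted sections were thus 11.6, 9.58 and 7.53 times the control, and the 5 dpi sections averaged 757 ± 128 CPM (SD, n = 2). These section levels were not tested between groups, since the control and 3 dpi groups had 1 section each, and they compare sections. Of the 10 members, 9 had intervals above that of the control in each infarcted section, and Ccl24 was the exception. The same held for 25.8% of the 16108 non-mitochondrial genes with at least 1 UMI in these sections.

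Among the monocyte chemoattractants, Ccl2 rose from 13 UMIs and 3.47 CPM in the control to 145, 97.6 and 70.6 CPM in the 3 dpi, female-labelled and male-labelled 5 dpi sections. Ccl7, which lies close to Ccl2 in sequence and function, stood at 5.61 CPM in the control and at 171, 121 and 95.7 CPM in the same order. Among the infarcted sections both were highest at 3 dpi and lowest in the male-labelled section. Ccl8, the ligand of Ccr8, was at 5.08 CPM in the control and at 117, 147 and 112 CPM after infarction. It was the member whose 5 dpi mean was furthest above the 3 dpi value, at 1.11 times, but with 130 ± 25.0 CPM (SD, n = 2) the 3 dpi value lay within 1 SD of that mean. Ccl12 had the smallest rise of the group, from 18.7 CPM in the control to 83.4, 61.2 and 45.8 CPM, or 4.46, 3.27 and 2.45 times the control.

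Of the inflammatory chemokines Ccl3, Ccl4 and Ccl5, Ccl3 had 0 UMIs in the control and 8.96, 9.12 and 6.37 CPM in the infarcted sections. Against a floor of 3 counts in the control, 0.802 CPM, these were at least 11.2-fold, 11.4-fold and 7.95-fold higher. Ccl4 was at 1.07 CPM in the control, from 4 UMIs, and at 22.9, 20.5 and 17.4 CPM after infarction. Ccl5, an attractant of T cells and a product of T and NK cells, was at 6.95 CPM in the control and at 39.9, 30.8 and 52.3 CPM. It was the only member that was highest in the male-labelled section.

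Ccl6 was the most abundant member in all 4 sections, at 32.1 CPM in the control and 285, 195 and 176 CPM after infarction. It supplied 36.3% of member UMIs in the control and 27.7%, 23.1% and 26.5% in the infarcted sections. Ccl9 rose more relative to the control, from 8.55 CPM to 151, 160 and 87.0 CPM, which were 17.6, 18.7 and 10.2 times the control. Ccl24 did not follow the others. It was at 6.95 CPM in the control and at 4.54, 5.03 and 2.89 CPM after infarction, with intervals for the ratio to the control that included 1 at 3 dpi and in the female-labelled section (0.386 to 1.12 and 0.440 to 1.22) and lay below it in the male-labelled section (0.228 to 0.753).

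In the control the order by level was Ccl6, Ccl12, Ccl9, Ccl5 with Ccl24, Ccl7, Ccl8, Ccl2, Ccl4 and Ccl3, and from Ccl9 downwards each interval overlapped that of its neighbour. At 3 dpi the order was Ccl6, Ccl7, Ccl9, Ccl2, Ccl8, Ccl12, Ccl5, Ccl4, Ccl3 and Ccl24, with overlap only between Ccl9 and Ccl2. Ccl2 had thus passed from the eighth to the fourth place. At 5 dpi Ccl9 and Ccl8 followed Ccl6 in the female-labelled section, with overlapping intervals, and Ccl8 followed it in the male-labelled section.

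**Figure D1:**
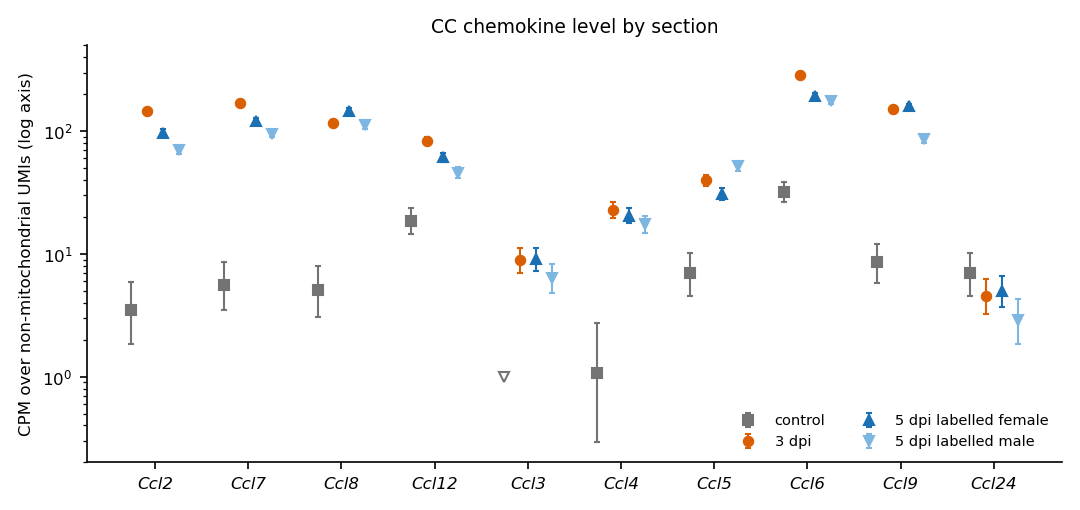
Level of each CC chemokine in the 4 sections, as CPM over non-mitochondrial UMIs on a log axis, with 95% Poisson intervals; the open triangle is the upper limit for Ccl3 in the control, which had 0 UMIs. 9 genes lie above the control in all infarcted sections, while Ccl24 does not.

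The zones ask where in the heart these transcripts lay. They were set from the share of 12 cardiomyocyte genes in each spot: connected spots whose share fell below 0.5 of the section's 90th percentile formed the infarct zone (IZ), spots within 2 steps of it BZ2, spots at 3 or 4 steps BZ1, and other spots above that limit the remote zone (RZ). Spots below the limit in patches too small for an infarct zone, 23, 41 and 10 in the 3 dpi, female-labelled and male-labelled sections, were left out of the zones. IZ held 882, 1061 and 684 spots in the 3 dpi, female-labelled and male-labelled sections, and RZ held 380, 200 and 533. Together the members reached 1507, 995 and 948 CPM over IZ spots and 215, 296 and 296 CPM in RZ, a ratio of 7.03, 3.36 and 3.202. The 3 sections did not overlap between these zones.

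Ccl7 had 259, 147 and 143 CPM in the infarct against 21.1, 31.0 and 28.6 CPM in RZ in the 3 dpi, female-labelled and male-labelled sections. Ccl2 had 210, 114 and 91.1 CPM in the infarct against 30.1, 35.8 and 49.96 CPM in RZ, so its contrast was widest at 3 dpi. Ccl8 had 162, 166 and 151 CPM against 36.9, 75.2 and 61.6 CPM. The IZ level of Ccl8 thus varied little between sections while its RZ level was higher at 5 dpi. Ccl12 had the flattest profile of the group, with 106, 63.9 and 56.4 CPM in IZ and 32.4, 51.3 and 31.4 CPM in RZ. Ccl6 had 431, 235 and 258 CPM against 50.4, 53.7 and 74.5 CPM, and Ccl9 had 227, 193 and 132 CPM against 27.9, 37.0 and 23.4 CPM. By CPM no member named in this paragraph overlapped between zones, and how many of all genes did not overlap either was not counted. Ccl5 had 58.7, 34.4 and 76.7 CPM in the infarct against 9.03, 3.58 and 17.3 CPM in RZ, Ccl4 had 33.5, 23.7 and 26.0 CPM against 3.01, 4.78 and 6.04 CPM, and Ccl3 had 13.8, 11.2 and 9.92 CPM against 0, 2 and 3 UMIs in all of RZ.

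Zone sums of the 3 infarcted sections were tested by edgeR's quasi-likelihood method over 9444 genes, with p adjusted after Benjamini and Hochberg, with the section as a block. TMM scaling places IZ 0.42, 0.35 and 0.47 lower against RZ on the log2 scale than CPM does in the 3 sections, so fitted fold changes are smaller than the CPM ratios by about that much. Genes entered the test when at least 3 sums reached 9.47 CPM. Ccl24 did not, and Ccl3 and Ccl4 did so through their IZ sums alone, since fewer than 3 sums outside IZ reached that level, so they had to differ and are not counted. The other 7 members were all called higher in IZ than in RZ, where 26.8% of all genes tested were called higher. Their median log2 fold change was 1.84, against 0.05 over all genes tested. Ccl9 had the smallest adjusted p (log2 fold change 2.22, SE 0.18, adjusted p = 2.50e-09 by edgeR quasi-likelihood with Benjamini-Hochberg adjustment), and Ccl7 (2.30, SE 0.24) and Ccl6 (1.84, SE 0.22) followed. Ccl5, Ccl2 and Ccl8 stood at 1.94, 1.23 and 1.06. Ccl3 was fitted at 2.91 (SE 0.53), from 5 UMIs in RZ in all, and Ccl4 at 2.02. Ccl12 was the weakest call, with 0.54 (SE 0.20, adjusted p = 0.027 by edgeR quasi-likelihood with Benjamini-Hochberg adjustment), and was not called without the 3 dpi section (adjusted p = 0.315) or without the male-labelled section (adjusted p = 0.0688). DESeq2 did not call Ccl2 (adjusted p = 0.0704) and Ccl12 (adjusted p = 0.0836). With no block 6 of the 7 were called, beside 4572 of 9444 genes. Without the 3 dpi section 7 members were called with those set aside included, 6 of them counted, beside 4624 of 8603 genes. Ccl24 was too low to be tested, at 5.61, 5.98 and 3.72 CPM in the infarct against 3.76, 1.19 and 2.01 CPM in RZ.

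Leukocyte markers moved in the same direction between these zones. The 8 macrophage markers summed to 3642 to 5720 CPM in IZ and 929 to 1245 CPM in RZ, and all 8 were called higher. All 5 lipid-associated macrophage markers were also called higher, as were 3 monocyte and 2 neutrophil markers, apart from 1 in each list that entered through IZ alone. Of 5 resident macrophage markers 1 was higher and 2 were lower, apart from Lyve1, which entered through RZ alone. T and NK cell markers summed to 19.9 to 27.9 CPM in IZ and 3.76 to 11.9 CPM in RZ, too low to be tested. Fibroblast markers summed to 13341 to 24625 CPM in IZ and 3314 to 4511 CPM in RZ, and of 8 tested 5 were higher and 1 was lower. The part of all these markers in the chemokine result was not tested.

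**Figure D2:**
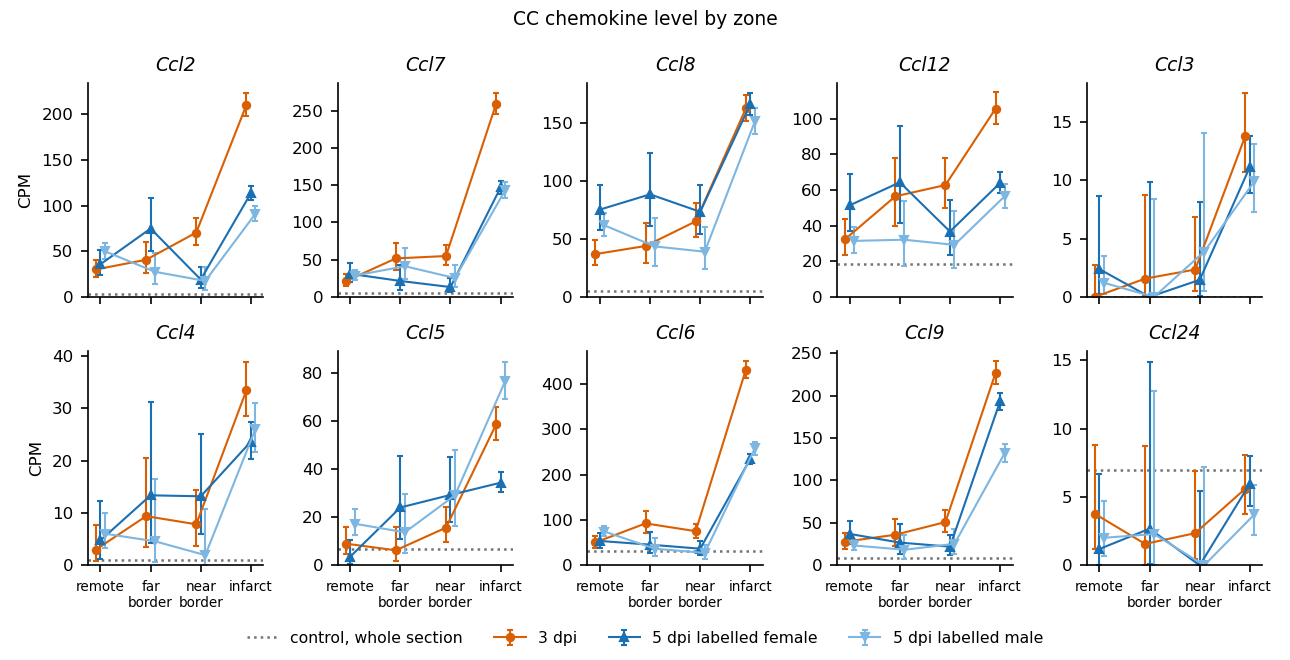
Level of each CC chemokine (CPM, with 95% Poisson intervals) in the remote, far border, near border and infarct zone of the 3 infarcted sections; the dotted line is the whole control section. In each section every gene lies higher in the infarct than at the near border, and at the near border the 3 dpi section lies above the 5 dpi sections for Ccl2, Ccl7 and Ccl6.

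Remote tissue was set beside the control as a description, since it was 1 section against each. The members together had 2.43 times the control level in RZ at 3 dpi and 3.35 times in both 5 dpi sections. Ccl2 (8.67, 10.3 and 14.4 times the control) and Ccl8 (7.26, 14.8 and 12.1 times) were furthest above it. The intervals lay above that of the control for 5 of 10 members at 3 dpi, 6 of 10 in the female-labelled section and 8 of 10 in the male-labelled section, against 7.68%, 10.1% and 10.2% of all non-mitochondrial genes with at least 1 UMI. Ccl2, Ccl7, Ccl8, Ccl6 and Ccl9 were among them each time. Ccl24 had 3.76, 1.19 and 2.01 CPM in RZ, from 5, 1 and 5 UMIs, and its intervals overlapped that of the control.

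The border asks whether the transcripts reached beyond the infarct. None of the 9 members tested was called between BZ2 and RZ by edgeR quasi-likelihood with Benjamini-Hochberg adjustment, where 4.21% of all genes were called higher and 4.80% lower. At an unadjusted p under 0.05 the same test gave 1 member, Ccl5, and 1989 of 9444 genes, and DESeq2 called 0 members and 682 genes. Ccl5 had 15.7, 29.3 and 29.2 CPM in BZ2 against 9.03, 3.58 and 17.3 CPM in RZ (log2 fold change 0.98, SE 0.39, adjusted p = 0.139 by edgeR quasi-likelihood with Benjamini-Hochberg adjustment). The sections did not run the same way for most other members. Ccl2 had 70.6 CPM in BZ2 against 30.1 CPM in RZ at 3 dpi, but 19.1 against 35.8 CPM and 17.5 against 49.96 CPM at 5 dpi. Ccl6 had 75.3 against 50.4 CPM at 3 dpi, and 36.7 against 53.7 CPM and 27.2 against 74.5 CPM at 5 dpi. Ccl7, Ccl8 and Ccl12 were likewise higher in BZ2 at 3 dpi and lower in it in both 5 dpi sections. Without the 3 dpi section, 3 members were called by edgeR quasi-likelihood with Benjamini-Hochberg adjustment, Ccl2 (log2 fold change −1.52, adjusted p = 0.00315) and Ccl6 (−1.17, adjusted p = 0.00229) as lower in BZ2 and Ccl5 as higher (1.23, adjusted p = 0.0483), with 705 of 8603 genes called.

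The difference between days was then tested as a zone by time term, chosen after these levels had been seen. It rests on 1 heart at 3 dpi, whose spread is assumed to be that of the others, so it sets that heart against the 2 at 5 dpi and cannot tell the day apart from the heart. For BZ2 against RZ, Ccl2 was 2.58 lower on the log2 scale at 5 dpi than at 3 dpi (−2.58, SE 0.50, adjusted p = 0.040 by edgeR quasi-likelihood with Benjamini-Hochberg adjustment) and was 1 of 2 genes called lower among all tested, 0.0212%. The call was lost under DESeq2 (adjusted p = 0.813), with no block and with other scalings (adjusted p = 0.0928 with total non-mitochondrial UMIs), and it held without the spot quality filter. The values of Ccl7 (−2.02) and Ccl6 (−1.58) did not pass, each with an adjusted p of 0.172 by edgeR quasi-likelihood with Benjamini-Hochberg adjustment. For IZ against RZ, 2.23% of all genes were called lower in this term, and with them Ccl2 (−1.67, SE 0.37, adjusted p = 0.00603) and Ccl6 (−1.19, SE 0.30, adjusted p = 0.0204) by edgeR quasi-likelihood with Benjamini-Hochberg adjustment, whereas DESeq2 called 0 members, as did the fit with no block. Ccl9 stood at −0.56 (SE 0.35) and Ccl5 at −0.50 (SE 0.57), and neither passed.

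Between IZ and BZ2, across the edge of the infarct, 6 of 7 members were called higher in IZ, against 14.5% of all genes, again leaving aside Ccl3 (2.02) and Ccl4 (1.55), which entered through IZ alone. The log2 fold changes were 2.41 for Ccl6 (SE 0.24), 2.23 for Ccl7 (SE 0.26) and 2.18 for Ccl9 (SE 0.20), followed by Ccl2 (1.56), Ccl8 (1.14) and Ccl5 (0.96). Ccl12 did not pass, at 0.50 (SE 0.21, adjusted p = 0.0757 by edgeR quasi-likelihood with Benjamini-Hochberg adjustment). It was called under 5 of the alternatives, with adjusted p from 0.0027 at an infarct limit of 0.3 to 0.0376 without the 3 dpi section. By CPM all 10 members, those set aside included, were higher in IZ in each of the 3 sections. Ccl24 had 3, 0 and 0 UMIs in BZ2, and the share of all genes with this direction was not counted. Ccl5 had a smaller difference across this edge in the female-labelled section, 34.4 against 29.3 CPM, than at 3 dpi, 58.7 against 15.7 CPM, or in the male-labelled section, 76.7 against 29.2 CPM. Its call was lost without the 3 dpi section (adjusted p = 0.138), without the male-labelled section (adjusted p = 0.0955), under DESeq2 (adjusted p = 0.0524) and with no block (adjusted p = 0.064), and that of Ccl3 without the female-labelled section (adjusted p = 0.0579).

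**Figure D3:**
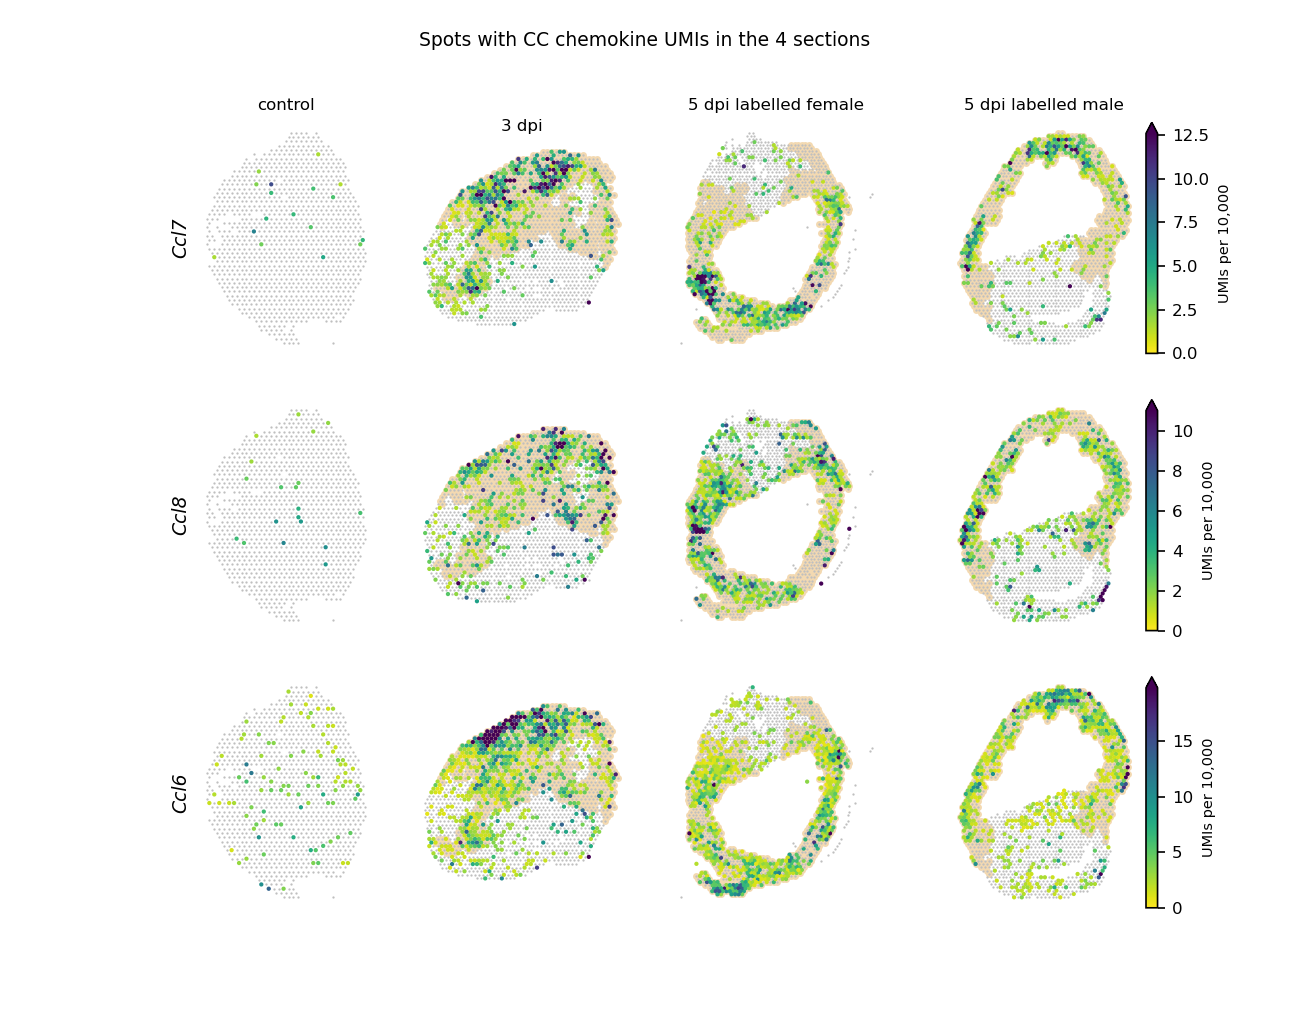
Spots of the 4 sections coloured by UMIs of Ccl7, Ccl8 and Ccl6 as a share of the non-mitochondrial UMIs of the spot, with the colour scale capped for bright spots; grey dots are spots with 0 UMIs and the tan ground is the infarct zone. Ccl7 and Ccl6 fill the infarct in patches, Ccl8 reaches its edges, and few spots of the control hold a UMI.

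Within the infarct the members were placed differently. The rim was taken as the first 2 steps inside the edge, with 357, 160 and 93 spots in the 3 dpi, female-labelled and male-labelled sections, and the core as spots more than 4 steps inside, with 342, 813 and 533 spots. Leaving aside Ccl3, which entered through the core alone (1.31, SE 0.36), 5 of 8 members were called higher in the core, against 6.73% of 10462 genes. They were Ccl7 (log2 fold change 2.23, SE 0.31), Ccl6 (1.91, SE 0.14), Ccl9 (1.83, SE 0.22), Ccl2 (1.82, SE 0.33) and Ccl8 (0.58, SE 0.16, adjusted p = 0.0209 by edgeR quasi-likelihood with Benjamini-Hochberg adjustment). Ccl12 (0.46), Ccl4 (0.82) and Ccl5 (0.19) did not pass. Without the 3 dpi section, in which the infarct reached 16 steps inward against 41 and 31 steps at 5 dpi, the same test called 2500 of 10937 genes, against 1934 of 10462 with it, and all 10 members, of which Ccl3 and Ccl24 entered through the core alone. The call of Ccl3 was lost without the female-labelled (adjusted p = 0.127) or the male-labelled section (adjusted p = 0.0805), and that of Ccl8 without the male-labelled section (adjusted p = 0.213). At an infarct limit of 0.3 Ccl8 turned to −0.15 and Ccl3 was not called (0.51, adjusted p = 0.298), and DESeq2 called neither (adjusted p = 0.067 and 0.1).

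Leukocyte markers were also higher in the core, namely all 5 lipid-associated macrophage markers, 4 of 4 monocyte markers apart from 1 that entered through the core alone, 3 of 3 tested neutrophil markers and 3 of 8 macrophage markers. Their part in the chemokine result was not tested.

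Levels by step give the shape of these differences. In the female-labelled section Ccl7 rose from 10.9 CPM in the first 2 steps to 22.8, 53.5, 112 and 252 CPM at 3 to 4, 5 to 8, 9 to 16 and over 16 steps, and Ccl2 from 9.06 CPM to 21.3, 68.8, 93.6 and 183 CPM. The same genes had 129 and 131 CPM in the first 2 steps at 3 dpi, and reached 379 and 294 CPM at 9 to 16 steps. The rim of the 3 dpi infarct was thus richer in both than the rim at 5 dpi, where the male-labelled section had 24.7 and 20.9 CPM. Ccl6 rose at 3 dpi from 190 CPM in the rim to 424 CPM at 5 to 8 steps and 1447 CPM at 9 to 16 steps. Ccl9 reached 462 CPM there from 134 CPM.

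Ccl8 followed another course. At 5 dpi it was highest in the middle depths and lower again in the deepest spots, with 257 CPM at 3 to 4 steps and 124 CPM over 16 steps in the female-labelled section, and 239 CPM at 5 to 8 steps and 128 CPM over 16 steps in the male-labelled section. At 3 dpi it had 122, 202, 193 and 158 CPM from the edge inward. Ccl5 also had its peak near the edge in the male-labelled section, with 146 CPM at 3 to 4 steps and 55.0 CPM over 16 steps, and at 3 dpi, with 85.0 CPM at 3 to 4 steps and 28.5 CPM at 9 to 16 steps, but it was level in the female-labelled section, between 25.4 and 37.7 CPM. Ccl12 fell in the deepest spots at 3 dpi, to 68.8 CPM from 125 CPM at 5 to 8 steps. These shapes are descriptions and were not tested against each other.

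**Figure D4:**
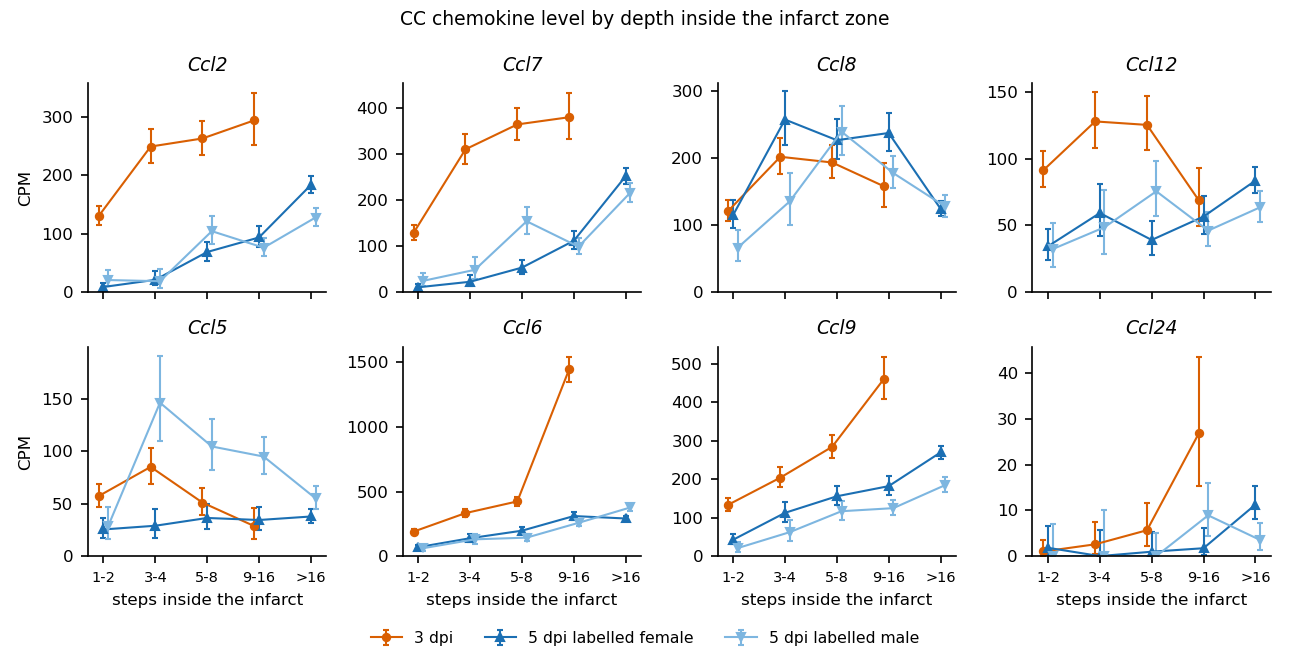
Level of 8 CC chemokines (CPM, with 95% Poisson intervals) against the number of spot steps inside the infarct edge, for the 3 infarcted sections; the 3 dpi infarct had no spot over 16 steps inside. Ccl7, Ccl2, Ccl9 and Ccl6 are higher in the deepest spots than in the first 2 steps, while Ccl8 peaks in the middle depths at 5 dpi.

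Ccl24, which attracts eosinophils and is a known product of macrophages, was examined at the surface of the infarct after its map had been seen, with no test. Surface spots were those at, or within 1 step of, a spot that lacked a kept neighbour, so removed and unmarked spots also made an edge. They made up 162, 574 and 423 infarct spots in the 3 dpi, female-labelled and male-labelled sections, against 720, 487 and 261 others, a broad layer at 5 dpi. In them Ccl24 had 25.0, 10.9 and 4.94 CPM in the same order. The other infarct spots had 2.34, 0.819 and 1.66 CPM, from 10, 3 and 3 UMIs. In the control, surface spots had 5.12 CPM and inner spots 8.02 CPM. Ccl6 was also higher at the infarct surface at 3 dpi, at 865 against 358 CPM, and by less at 5 dpi, at 256 against 213 CPM and 283 against 215 CPM. Ccl9 had 334 against 209, 205 against 181 and 149 against 104 CPM in the 3 dpi, female-labelled and male-labelled sections. Ccl8 was higher at the surface at 3 dpi, at 246 against 148 CPM, and lower in the female-labelled section, at 129 against 205 CPM, with 154 against 146 CPM in the male-labelled section. Mesothelial markers, which mark the outer lining of the heart, summed to 23.6, 147 and 22.1 CPM in surface infarct spots and 4.68, 35.0 and 12.8 CPM in the others, and erythroid genes to 6637, 25653 and 8180 CPM against 2787, 19972 and 18228 CPM. Their part in these levels was not tested. Eosinophil markers summed to at most 4.21 CPM in any zone of the infarcted sections.

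By the cardiomyocyte share of the spot itself, in 4 bands relative to the 90th percentile of the section, the members together fell from 2004 CPM in the lowest band to 596, 426 and 222 CPM at 3 dpi. At 5 dpi the fall lay at the step from the lowest band to the next, from 1087 CPM to 287, 300 and 285 CPM in the female-labelled section and from 1054 CPM to 253, 311 and 252 CPM in the male-labelled section. Among single members the ratio of the lowest to the highest band at 3 dpi was 14.6 for Ccl7 (95% interval 10.8 to 20.3), 10.4 for Ccl2 and 3.36 for Ccl12 (2.58 to 4.44). Ccl12 had the lowest ratio in all 3 sections. In the female-labelled section it was 1.24 with an interval that included 1 (0.9503 to 1.64). Leaving the cardiomyocyte genes out of the denominator moved the ratio of all members from 9.02 to 8.22 at 3 dpi.

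Shares of spots with at least 1 UMI were compared after each spot was thinned to 1534 non-mitochondrial UMIs. Any member was found in 73.1%, 67.03% and 64.0% of IZ spots and in 25.1%, 34.7% and 32.3% of RZ spots in the 3 dpi, female-labelled and male-labelled sections, against 12.9% of spots of the control. Without thinning the IZ shares were 90.8%, 90.6% and 90.4%. Thinning left out 87, 60 and 4 IZ spots. Ccl6 was found in 33.5%, 25.9% and 29.1% of thinned IZ spots and Ccl3 in 2.01%, 1.60% and 2.06%, whereas in the control Ccl3 was found in 0 of 1031 thinned spots, for which the upper limit from 3 counts is 0.291%.

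Infarct spots were next divided by marker genes of leukocytes and fibroblasts, none of them a CC chemokine, to ask with which markers the members went. The divisions do not separate cell types, since markers of several leukocytes rose together in the 4 leukocyte divisions. In each section, infarct spots above the 67th percentile of the share of a list in their UMIs were set against those at or below the 33rd percentile. The 5 lipid-associated macrophage markers (Spp1, Gpnmb, Trem2, Lgals3 and Fabp5) were taken first. Ccl7 had 475, 312 and 285 CPM in marker-rich spots and 82.6, 36.2 and 49.7 CPM in marker-poor spots in the 3 dpi, female-labelled and male-labelled sections. Ccl3 had 28.1, 22.8 and 18.5 CPM against 1.81, 3.11 and 2.69 CPM. Ccl3 entered the test through marker-rich spots alone (3.03, SE 0.30), and the other 8 members tested were called higher in marker-rich spots, against 13.9% of 10233 genes, with log2 fold changes of 2.62 for Ccl7 (SE 0.14), 2.20 for Ccl2, 2.19 for Ccl4, 2.15 for Ccl6, 1.64 for Ccl9, 1.31 for Ccl8, 1.24 for Ccl12 and 0.77 for Ccl5. Ccl24 was not tested, and in the female-labelled section it went the other way, with 1 UMI in marker-rich and 21 UMIs in marker-poor spots. Marker-rich spots lay deeper, at a median of 6, 23 and 18.5 steps against 2, 4 and 5 steps, with all 8 macrophage markers and 3 of 3 tested neutrophil markers also higher in them, and with the division made separately within rim, middle and core 7 members, none of which entered through one kind of spot alone, were tested and called, beside 1798 of 5705 genes in either direction.

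Resident macrophage markers (7 genes, Lyve1, Folr2 and Cd163 among them) gave 8 of 9 members higher in marker-rich spots, against 7.33% of 10324 genes. Ccl24, not counted because it entered through marker-rich spots alone, had 22, 34 and 9 UMIs in them and 3, 3 and 3 UMIs in marker-poor spots (2.51, SE 0.43). Ccl6 stood at 1.35 (SE 0.08), at 743, 340 and 376 CPM against 236, 140 and 167 CPM, and Ccl5 did not pass (0.28, SE 0.13). All 5 lipid-associated macrophage markers, all 8 macrophage markers and 3 of 3 tested neutrophil markers were also higher in these spots, and all 5 erythroid genes were lower. Marker-poor spots of this list had 0 UMIs of it and, at 3 dpi and in the female-labelled section, fewer UMIs, with medians of 3330 and 4287 non-mitochondrial UMIs against 5589 and 7094 in marker-rich spots, and the part of depth was not tested.

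Neutrophil markers (6 genes, S100a8 and S100a9 among them) gave 5 of 9 members higher, against 5.27% of 10788 genes. Ccl24 again entered through marker-rich spots alone, with 16, 32 and 10 UMIs against 4, 6 and 7 UMIs (2.15, SE 0.38). Those called were Ccl6 (1.35, SE 0.09), Ccl7 (1.05), Ccl9 (0.95), Ccl2 (0.70) and Ccl4 (0.48, adjusted p = 0.0451 by edgeR quasi-likelihood with Benjamini-Hochberg adjustment). Ccl8 had 242 against 112 CPM at 3 dpi but 168 against 159 CPM and 155 against 143 CPM at 5 dpi, and did not pass (0.35, SE 0.12), but was called without either 5 dpi section (adjusted p = 0.000747 and 0.000754). The call of Ccl4 was lost without the 3 dpi section (adjusted p = 0.0885), without the female-labelled section (adjusted p = 0.426), under DESeq2 (adjusted p = 0.652), without the spot quality filter (adjusted p = 0.0531), with no block (adjusted p = 0.422) and within strata of depth (0.27, adjusted p = 0.456). Of other lists, 4 of 5 lipid-associated macrophage markers, 3 of 8 macrophage markers and 2 of 5 resident macrophage markers were also higher. So were 3 of 4 monocyte markers, apart from 1 that entered through one kind of spot alone, while 3 of 8 fibroblast markers were lower. Neutrophil-rich spots lay deeper, at a median of 6, 24.5 and 21 steps against 2, 13 and 7 steps, and within strata of depth 4 members were called, beside 457 of 6577 genes in either direction.

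Fibroblast markers (8 genes, Dcn and Col1a1 among them) gave 3 of 9 members lower in fibroblast-rich spots, against 3.36% of 10261 genes called lower, and 0 higher. Ccl3 (−1.21, SE 0.27) is left aside, since it entered through fibroblast-poor spots alone. Those called were Ccl6 (−0.85, SE 0.11), Ccl2 (−0.82, SE 0.19) and Ccl7 (−0.69, SE 0.16). Ccl6 had 315, 169 and 232 CPM in fibroblast-rich spots and 697, 305 and 321 CPM in fibroblast-poor spots. Ccl8 was not lower, at 214 against 140 CPM at 3 dpi and 198 against 133 CPM in the female-labelled section, with 122 against 166 CPM in the male-labelled section (0.27, SE 0.16), and without the latter it was called higher (0.58, adjusted p = 0.025). The calls of Ccl2, Ccl7 and Ccl3 were lost without the male-labelled section (adjusted p = 0.204, 0.252 and 0.137), that of Ccl3 also without the female-labelled section (adjusted p = 0.167), while Ccl6 was called without any 1 of the 3 sections. DESeq2 called 1 member and 238 of 10261 genes. In fibroblast-rich spots 3 of 5 lipid-associated macrophage markers were also lower, as were 4 of 4 erythroid genes apart from 1 that entered through fibroblast-poor spots alone. Fibroblast-rich spots lay at a median of 3, 18 and 12 steps inside the edge against 6, 19 and 13.5 steps, and the part of these differences was not tested.

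T and NK cell markers (9 listed genes, 8 of them in the matrices, Cd3e and Nkg7 among them) were found in 100, 110 and 82 infarct spots, which were set against the 782, 951 and 602 spots without them. Of 9 members, 8 were higher, against 1.24% of 10981 genes, leaving aside Ccl24, which entered through the spots without markers alone (−0.50, SE 0.50) and did not pass. Ccl5 had 121, 83.8 and 202 CPM in marker-rich spots and 48.7, 27.0 and 57.1 CPM in the others (log2 fold change 1.59, SE 0.12, adjusted p = 7.87e-17 by edgeR quasi-likelihood with Benjamini-Hochberg adjustment). Without the 3 dpi section the same test called 2 members, Ccl5 and Ccl8, and 163 of 10996 genes. DESeq2 called 3 members, both of these among them, and 109 of 10981 genes. Without the male-labelled section Ccl6 and Ccl9 were not called (adjusted p = 0.244 and 0.136). The other calls ranged from 0.28 for Ccl9 to 0.79 for Ccl4. Of other lists, 4 of 5 lipid-associated macrophage markers, 3 of 5 monocyte markers and 2 of 8 macrophage markers were also higher. Of 5 resident macrophage and 4 neutrophil markers tested, 0 were higher. Marker-rich spots had more UMIs, with medians of 7040, 8719 and 7838 non-mitochondrial UMIs against 5312, 6712 and 6694, and the part of depth was not tested.

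**Figure D5:**
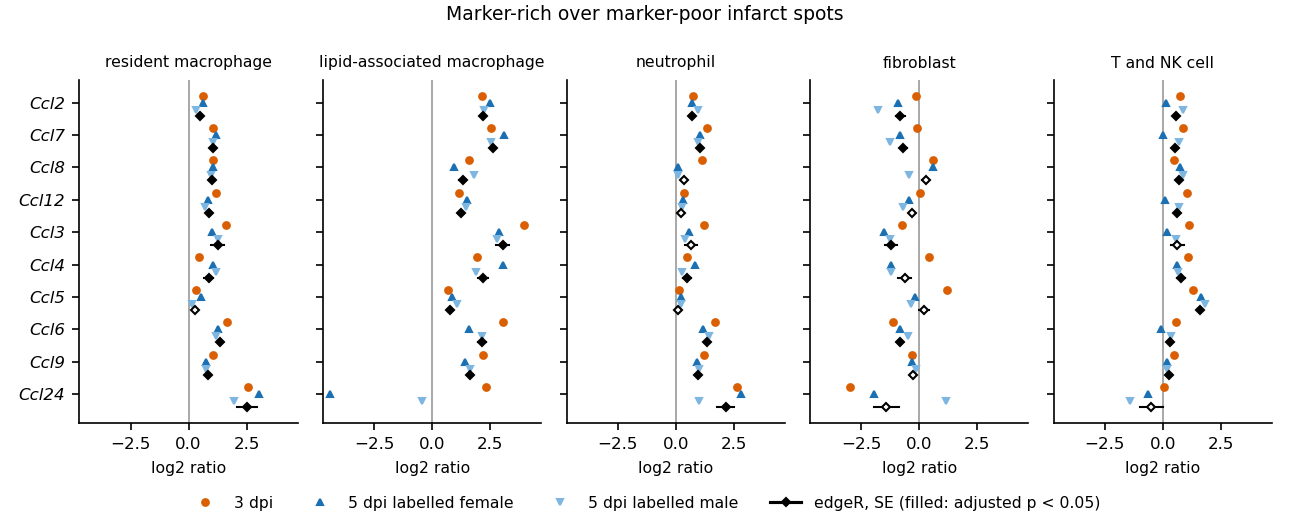
Log2 ratio of marker-rich to marker-poor infarct spots for each CC chemokine and 5 marker lists, for each infarcted section (coloured, CPM ratios) and as fitted by edgeR with its SE (black, filled where the adjusted p passed). Lipid-associated macrophage markers give high ratios for Ccl7 and Ccl2, Ccl5 has the highest fitted ratio with T and NK cell markers, and fibroblast markers lie at or below 0 for most members.

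Among the receptors of these ligands, Ccr2, carried by monocytes and macrophages, was higher in IZ than in RZ, by a log2 fold change of 2.47 (SE 0.29), and higher in IZ than in BZ2, by 1.66 (SE 0.29). Ccr1, which the same cells carry, entered these tests through IZ alone and is not counted there. Neither was called between BZ2 and RZ by edgeR quasi-likelihood with Benjamini-Hochberg adjustment, with adjusted p of 0.284 for Ccr2 and 0.352 for Ccr1, and neither had an unadjusted p under 0.05. Both were also higher in the core than in the rim (0.70 for Ccr2 and 0.88 for Ccr1) and in spots rich in lipid-associated macrophage markers, where Ccr1 changed by 1.12 (SE 0.16). Of 4 atypical receptors, which bind chemokines without recruiting leukocytes, 0 could be tested between zones. Within the infarct Ackr4, a scavenger of Ccl19 and Ccl21, entered the test of core against rim through the rim alone and is not counted.

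Of 11 other CC ligands 3 could be tested between zones, and 0 were higher in IZ. Ccl27a was lower in IZ than in RZ (−1.65, SE 0.21) and Ccl21a, a lymphatic ligand of Ccr7, was lower as well (−0.89, SE 0.37, adjusted p = 0.0484 by edgeR quasi-likelihood with Benjamini-Hochberg adjustment), while Ccl19 did not pass (0.75, SE 0.45). Of 12 NF-kB pathway genes 8 were tested apart from Il1b (2.51, SE 0.40) and Nfkbiz, which entered through IZ alone, and 7 of the 8 were higher in IZ than in RZ, with the receptor Il1r1 at 2.14 (SE 0.28) and Rela not passing (0.29, SE 0.16). Between BZ2 and RZ only Il1r1 was called (1.44, SE 0.37), and between core and rim Myd88 (0.60, SE 0.18), leaving aside Il1b, which entered through the core alone.

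Over the 12 zone sums and the control, 13 points in all, the profile of Ccl7 was most like that of Ifi204 among 4091 genes (Pearson r = 0.99 of log2(CPM + 1)), and that of Ccl9 was most like those of Uggt1, Itgb2 and Itgam (0.98 each). Ccl8 was nearest to Tubb5, Ube2c and Top2a (0.96, 0.96 and 0.95), and Ccl6 to Pf4, Hnrnpm and Rac2 (0.95, 0.95 and 0.93). Ccl2 and Ccl12 had the same nearest gene, Sfpq (0.94 each). Ccl24 had the loosest match, Emilin2 at 0.81. Zones of a section share their library, so these values are descriptions.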

How the data were processed

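Spatial transcriptomics (10x Genomics Visium) captured polyadenylated RNA from 1 section of each heart. The authors mapped reads with Space Ranger 1.3.1, chose the spots under tissue by hand and deposited raw UMI counts per gene and spot. The labels name mm10, while the study's methods name an Ensembl reference with GFP added. From the spots marked as tissue, those below 500 UMIs or 250 genes or above 50% mitochondrial UMIs were removed, the study's limits.

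Infarct spots had a share of 12 cardiomyocyte genes under 0.5 times the section's 90th percentile and lay in patches of at least 10 spots. Counts were summed per section and zone, depth class or marker class, since spots are not replicates, and tested with edgeR 4.0.16 (TMM, filterByExpr, quasi-likelihood test, Benjamini-Hochberg over all genes tested, threshold 0.05) in R 4.3.3. The section was a block in each test, because zones compared came from the same heart. Alternatives were DESeq2 1.42.0, other scalings and filters, an infarct limit of 0.3, no block, division within depth strata and leaving out each infarcted section. The procedure was tested on simulated data. Intervals were exact Poisson (95%), computed with SciPy 1.17.1, and a count of 0 was given a floor of 3 counts. All 10 members are given in each comparison, with genes of fixed receptor, ligand, NF-kB and marker lists and, for likeness, the nearest genes by correlation. The members, lists and motifs were chosen with earlier results of these data known. UMI counts of 3742105 to 9540940 per section limit the precision for Ccl3, Ccl4 and Ccl24. One gene of the receptor list is not reported here.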

Additional observations from a re-analysis of the deposited data

Results flagged for a closer look

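The change of zone contrasts between days was picked out by a test of the difference itself, with 1 heart at 3 dpi, so the day cannot be told apart from the heart, and under DESeq2 or with no block 0 members were called. For Ccl2, BZ2 against RZ differed by −2.58 on the log2 scale at 5 dpi from 3 dpi, and IZ against RZ differed by −1.67. For Ccl6, IZ against RZ differed by −1.19.

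Spots of the section labelled male that were not marked as tissue, 623 in number, entered no comparison and held all 10 members at intervals above those of the control section. The same held for 29.5% of the 14694 non-mitochondrial genes with at least 1 UMI in either. Ccl6 stood at 500.7 CPM in them, Ccl9 at 168.7 CPM, Ccl7 at 109 CPM, Ccl2 at 83.4 CPM and Ccl8 at 73.1 CPM. Ccl12 stood at 43.5 CPM, Ccl5 at 41.3 CPM, Ccl24 at 31.9 CPM, Ccl4 at 19.7 CPM and Ccl3 at 7.18 CPM. Ccl24 and Ccl6 were concentrated in 1 patch of 319 spots, at 92.2 and 1273 CPM, in which erythroid genes summed to 6929 CPM and cardiomyocyte genes to 2972 CPM. A patch of 174 spots had 185 CPM of Ccl6 and 6.35 CPM of Ccl24, with erythroid genes at 109682 CPM. What this material is was not tested.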

How the results depend on the processing

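Apart from members set aside because they entered through one group alone, the alternatives called 5 to 7 of 7 members for IZ against RZ, 5 to 7 of 7 for IZ against BZ2 and 7 to 8 of 8 for the lipid-associated macrophage division. All genes called in either direction ran from 4163 of 9586 to 6226 of 9444 for IZ against RZ. They ran from 2130 of 10025 to 3999 of 9444 for IZ against BZ2 and from 1522 of 10233 to 3489 of 15361 for that division. The counts below include members set aside. With no replicate block, that is without pairing the zones of a heart, core against rim gave 1 member beside 1042 of 10462 genes and the resident division 1 beside 8 of 10324. The neutrophil, fibroblast and T and NK cell divisions gave 0 members, beside 5 of 10788, 0 of 10261 and 5 of 10981 genes. Of 103 log2 fold changes, 66 kept their side of the threshold and 37 lost their call without the block. DESeq2 called 1 member for fibroblasts and 3 for T and NK cells, beside 238 of 10261 and 109 of 10981 genes. Omitting the low-count filter gave 7 for fibroblasts, 6 of them apart from Ccl3, beside 1043 of 15355 genes, and 1 for BZ2 against RZ, beside 1004 of 16015. Leaving out 1 section gave 5 to 10 members for core against rim, 2 to 8 for T and NK cells and 0 to 3 for BZ2 against RZ, with the extremes of 10, 2 and 3 reached without the 3 dpi section, beside 2500 of 10937, 163 of 10996 and 705 of 8603 genes.

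The day terms, chosen after seeing the data, could not be refitted without a section. Members called for BZ2 against RZ were 0 with DESeq2, with both other scalings and without the block, beside 0 genes each, and 3 without the low-count filter, beside 17 of 16015. For IZ against RZ they were 0 with DESeq2 and without the block, beside 142 and 18 of 9444 genes, and 4 without the spot filter, beside 352 of 9467.

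Signs changed mostly for BZ2 against RZ, where no value had passed, and for 1 called value, Ccl8 in core against rim. DESeq2 gave −0.06 for Ccl7, −0.03 for Ccl12 and −0.01 for Ccl9. Ccl8 became 0.08 and 0.03 under the scalings to non-mitochondrial UMIs with and without cardiomyocyte genes. An infarct limit of 0.3 gave 0.05 for Ccl8, −0.26 for Ccl7, −0.27 for Ccl12 and −0.14 for Ccl3. Leaving out 1 section gave ranges of −1.52 to 0.37 for Ccl2, −0.81 to 0.46 for Ccl7, −0.43 to 0.23 for Ccl8, −0.43 to 0.30 for Ccl12 and −0.51 to 0.37 for Ccl9. For core against rim the limit of 0.3 gave −0.15 for Ccl8, and −0.32 for Ccl5, whose range over sections left out was −0.16 to 0.78. Ccl5 ranged from −0.30 to 0.53 in the fibroblast division. The causes were not tested.

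Over all UMIs, mitochondrial ones included, the members together had 52.96, 808.1, 734.5 and 570.9 CPM in the control, at 3 dpi and in the sections labelled female and male. Over non-mitochondrial UMIs, all spots of the matrix of the section labelled male gave 753.3 CPM, against 666.1 CPM in its kept spots. Depth limits Ccl24, which was too low to be tested between zones.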
